A study of Homo sapiens with 27 samples.

Results

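Expression after 24 h of hypoxia with the mTOR kinase inhibitor PP242 was compared with expression after 72 h of hypoxia with the solvent DMSO, across all genes, in the neuroblastoma line SK-N-BE(2)c. The comparison takes 8 of the 27 bead arrays of the study, 4 labelled PP242 24 h and 4 labelled DMSO 72 h, chosen by their labels alone. The other arrays hold an untreated 0 h control (4 arrays), DMSO 24 h (3 arrays) and the later groups. Levels at 0 h are given beside many results as a reference point, and DMSO 24 h beside some. Treatment and time differ together here: one group had the drug and a short exposure to low oxygen, the other had no drug and a long one. Drug and duration therefore cannot be told apart in any difference between these groups. PP242 24 h and DMSO 24 h had equal time, and DMSO 72 h and DMSO 24 h had no drug. Contrasts with DMSO 24 h, which share its 3 arrays, are given for some lists. Neither the dose of PP242 nor the oxygen level is given in the labels. Nothing in them says that the 4 numbered samples of a group were separate cultures, so the p-values measure the spread between these samples, which may be technical.

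SK-N-BE(2)c is an established line from a neuroblastoma, a childhood tumour of the sympathetic nervous system, and carries many copies of MYCN, the oncogene that marks aggressive cases. PP242 blocks the ATP site of the mTOR kinase in both of its complexes. mTORC1 drives protein, lipid and nucleotide synthesis and growth towards division when nutrients are plentiful, while mTORC2 phosphorylates AKT and SGK kinases, which in turn hold FOXO transcription factors out of the nucleus. In low oxygen the HIF transcription factors are stabilised and switch on genes of glycolysis, angiogenesis and pH control, and long hypoxia also lowers division and engages stress responses that curb translation. The comparison therefore sets an early drug state beside a late oxygen-poor state, both of which had low levels of cell division genes.

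The 8 arrays had median intensities of 103 to 110 and 20910 to 22843 probes above their own background. Log2 signals of arrays of one group correlated at 0.973 to 0.989 (PP242 24 h) and 0.983 to 0.990 (DMSO 72 h), and those of different groups at 0.959 to 0.978. Of 11 sympathoadrenal markers, 9 had a probe, and all 9 were above background on all 8 arrays, with a summed intensity of 53240 to 65405 in PP242 24 h and 56542 to 63099 in DMSO 72 h. MYCN, the amplified gene itself, read 14.42, 14.46, 14.09 and 13.87 on the PP242 24 h arrays and 13.95, 14.19, 13.94 and 13.97 on the DMSO 72 h arrays (log2 normalized intensity, as are all levels below). The ranges overlapped at the top of the scale, and the difference of 0.20 (SE 0.17, 95% interval -0.15 to 0.55) did not pass the test (adjusted p = 0.563).

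Of 12701 genes tested, 681 (5.36%) were higher and 797 (6.28%) lower in PP242 24 h than in DMSO 72 h at an adjusted p under 0.05, together 11.6%. These shares of all genes are the background for every list count of this comparison below. With the sample number as a block, which treats arrays of equal number as pairs, the counts were 1285 (10.1%) and 1264 (9.95%). Those shares are the background for list counts with the block. At least 2-fold differences were fewer and leaned to one side: 57 genes (0.449%) were higher and 206 (1.62%) lower. The median difference over all genes was 0.01 on the log2 scale, and the extremes were KLF2 at 4.06 and COXFA4L2 at -3.93. For 11702 genes (92.1%) the 95% interval of the difference lay within 1 log2 unit of 0.

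**Figure D1:**
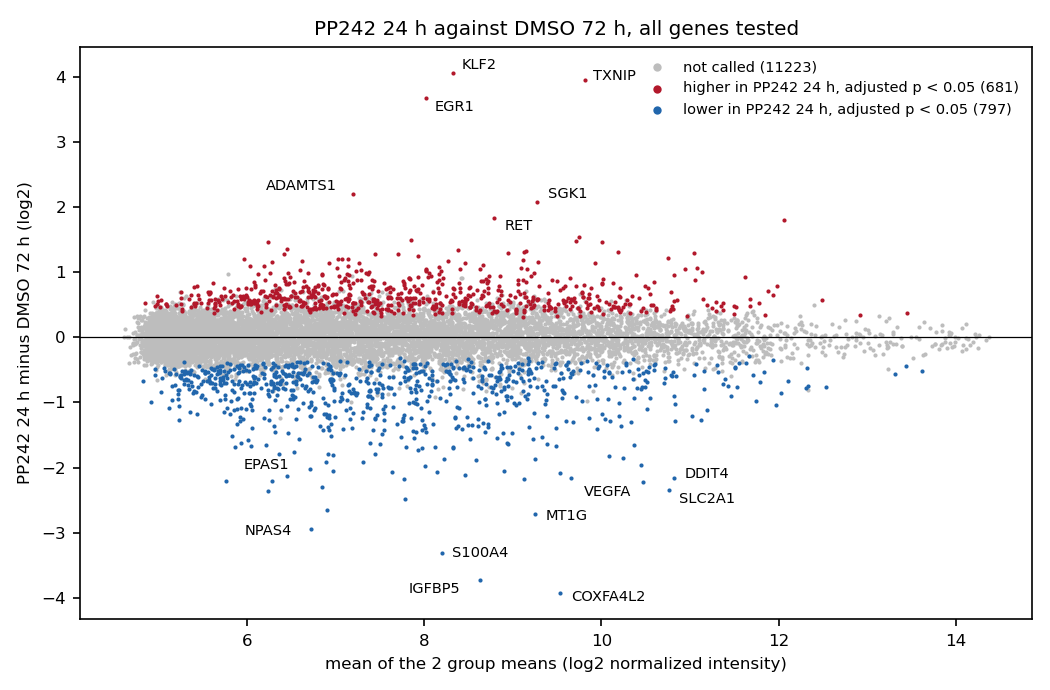
Difference between PP242 24 h and DMSO 72 h (log2, vertical axis) against the mean level of the gene (log2 normalized intensity, horizontal axis), 1 point per gene, with genes past the adjusted p threshold coloured by direction. KLF2, TXNIP and EGR1 stand alone at the top with differences of 4.06, 3.95 and 3.67, and below 0 a broader tail runs from DDIT4 and VEGFA down to COXFA4L2.

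The 3 genes furthest above in PP242 24 h were KLF2, a zinc finger factor known from quiescent endothelial and T cells, TXNIP, an arrestin that restrains glucose uptake, and EGR1, an immediate early zinc finger factor. KLF2 read 10.15, 9.49, 10.87 and 10.90 on the PP242 24 h arrays and 6.43, 6.31, 6.36 and 6.09 on the DMSO 72 h arrays. TXNIP read 11.90, 11.64, 12.05 and 11.57 with PP242 at 24 h and 7.70, 7.81, 8.09 and 7.75 with DMSO at 72 h. EGR1 read 9.79, 8.97, 10.48 and 10.18 against 6.05, 6.23, 6.17 and 6.31. None of these ranges came near each other: every drug array lay at least 2 log2 units above every DMSO 72 h array. The differences were 4.06 for KLF2 (SE 0.29, adjusted p = 1.61e-10), 3.95 for TXNIP (SE 0.21, adjusted p = 5.1e-13) and 3.67 for EGR1 (SE 0.29, adjusted p = 5.85e-10), that is 16.6-fold, 15.5-fold and 12.7-fold.

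All 3 also lay on opposite sides of the 0 h control. Relative to it KLF2 stood at 2.96 in PP242 24 h and at -1.09 in DMSO 72 h (log2 differences). TXNIP stood at 2.43 and -1.53 relative to the control, and EGR1 at 2.71 and -0.96. Both contrasts share the control arrays, and each was past the threshold for all 3 genes. In all, 57 genes (0.449%) were called between the groups and called on opposite sides of the control. RET, the receptor for GDNF ligands, was one of them, at 1.11 and -0.72, and ADAMTS1, a secreted metalloprotease, another, at 0.96 and -1.23.

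**Figure D2:**
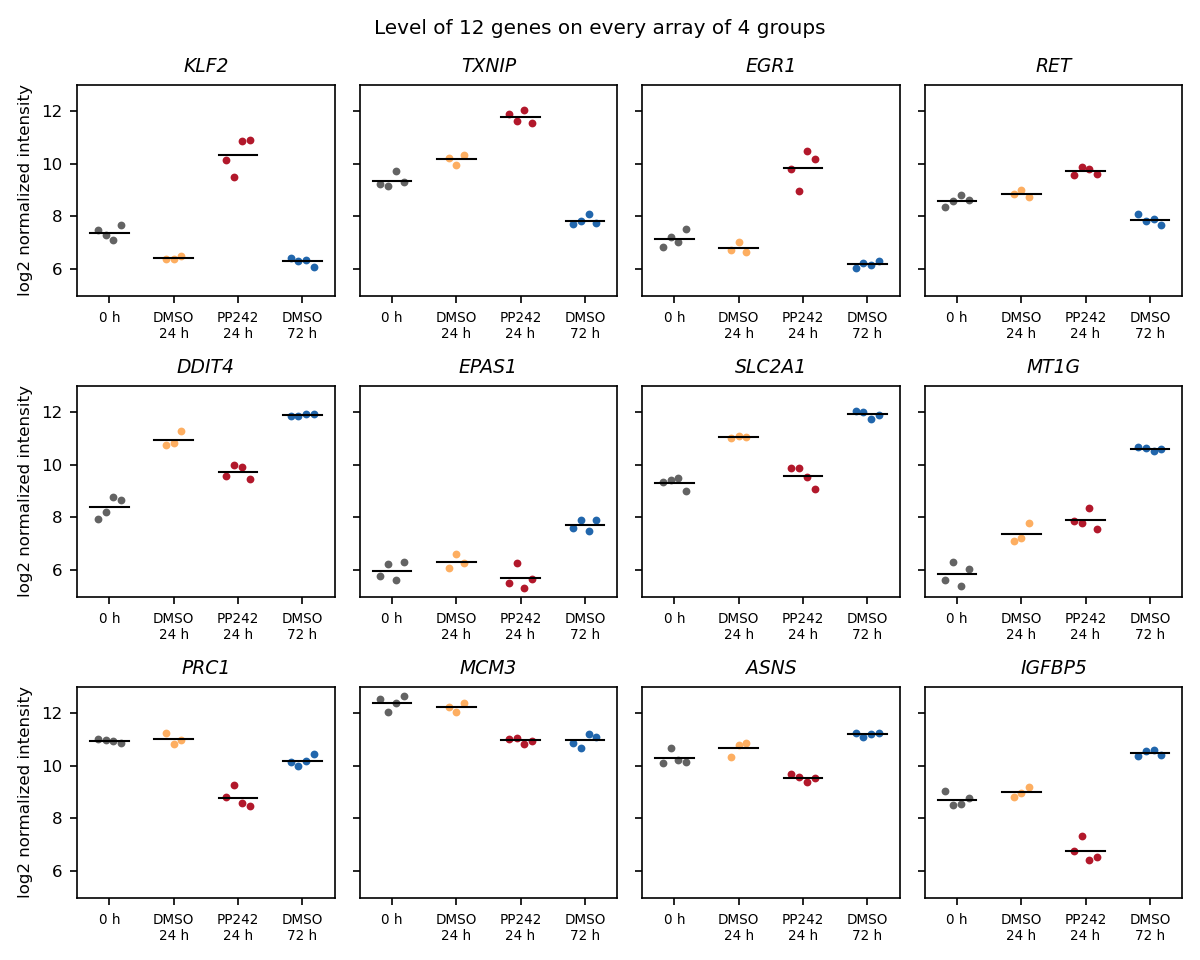
Level of 12 genes (log2 normalized intensity, vertical axis) on every array of the 0 h control, DMSO 24 h, PP242 24 h and DMSO 72 h groups; points are arrays and bars are group means. KLF2, TXNIP, EGR1 and RET are above the 0 h level in PP242 24 h and below it in DMSO 72 h, IGFBP5 and ASNS do the opposite, and MCM3 is below the 0 h level in both.

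SGK1, a kinase that mTORC2 activates, read 10.67, 10.12, 10.36 and 10.09 with PP242 and 8.37, 8.36, 8.12 and 8.10 with DMSO at 72 h, a difference of 2.07 (SE 0.27, adjusted p = 3.59e-06). Its level at 24 h of drug was close to the control mean of 9.99, and the distance came mostly from the DMSO 72 h arrays, which stood at -1.75 relative to the control (adjusted p = 1.39e-05). IRS2, the insulin receptor substrate that FOXO factors induce, was 2.81-fold higher (1.49, SE 0.24). Its level was 1.54 above the control in PP242 24 h and 0.05 above it in DMSO 72 h. RET was 3.57-fold higher, with levels of 9.57 to 9.87 against 7.68 to 8.10. VGF, a secreted neuropeptide precursor, was 3.49-fold higher, ICAM2, an adhesion molecule, 2.9-fold, and SLC7A2, a transporter of cationic amino acids, 2.75-fold. ARRDC4, the arrestin most like TXNIP, was 2.77-fold higher and PTPRR, a phosphatase of ERK kinases, 2.8-fold, though another kept probe of PTPRR differed by only -0.10.

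ERK feedback genes, which ERK signalling induces to limit itself, moved in both directions. Of 14 tested, 6 were higher (42.9%, all genes 5.36%) and 3 lower (21.4%, all genes 6.28%), with a median of 0.51. These counts were 5 and 1 without PP242 24 h replicate 4. They were 4 and 2 with arrays scaled to 1 median in place of quantiles. Without PP242 24 h replicate 3, or DMSO 72 h replicate 1 or 3, they were also 4 and 2. ETV4, an ERK-induced ETS factor, read 6.86, 6.79, 7.45 and 7.42 in PP242 24 h and 5.79, 5.79, 5.58 and 5.92 in DMSO 72 h, with no overlap (1.36, SE 0.21, adjusted p = 4.31e-05). SPRY4, an inhibitor of receptor kinase signalling, was 2.53-fold higher, but another of its probes differed by -0.21. DUSP6, the phosphatase specific to ERK, was 2.23-fold higher and ETV5 1.69-fold. SPRY2, a close relative of SPRY4, went the other way, with levels of 9.98 to 10.54 against 10.66 to 10.93 (-0.51, SE 0.13, adjusted p = 0.0073). ETV4 and ETV5 owed their distance to the later group: in DMSO 72 h they lay at -1.17 and -1.07 relative to the control, and in PP242 24 h at 0.19 and -0.32, where neither was called.

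Immediate early genes did not follow EGR1 as a group. Of 16 tested, 2 were higher (12.5%, all genes 5.36%) and 1 lower (6.25%, near the 6.28% of all genes), with a median of 0.11. The higher count was 1 without PP242 24 h replicate 1 or DMSO 72 h replicate 2 and 4 without PP242 24 h replicate 2. The lower one was NPAS4, an activity-dependent factor of neurons, which read 4.88, 5.26, 5.06 and 5.80 in PP242 24 h and 7.77, 7.90, 8.48 and 8.62 in DMSO 72 h. It was above background on 1 of the 4 drug arrays and on all 4 of the others, and the difference was -2.94 (SE 0.33, adjusted p = 4.37e-07). Of 12 Kruppel-like factors, KLF2 and KLF6 were higher (16.7%, all genes 5.36%) and none was lower. KLF6, a broadly expressed member, was 1.85-fold higher (0.89, SE 0.14).

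The promoter of EGR1 is printed because it holds the serum response sites through which ERK signalling is known to act. It is the 250 bases before the RefSeq start on GRCh38.p14, plus strand, chr5:138465229-138465478, and the capitals mark 2 CArG boxes that begin 105 and 83 bases before the start.
EGR1: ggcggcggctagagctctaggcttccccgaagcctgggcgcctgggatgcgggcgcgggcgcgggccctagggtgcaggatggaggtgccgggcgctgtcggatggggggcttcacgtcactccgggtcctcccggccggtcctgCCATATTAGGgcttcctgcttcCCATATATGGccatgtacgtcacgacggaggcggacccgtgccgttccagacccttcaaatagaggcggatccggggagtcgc
A CArG box on either strand occurred in 1.16% of 35114 promoter windows of that length, and in 1 of 15 windows (6.67%) of the 12 immediate early genes that have one, namely this window of EGR1. The match is a description of the sequence only.

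Targets of FOXO and members of insulin receptor feedback gave calls both ways. Of 27 tested, 5 were higher (18.5%, all genes 5.36%) and 7 lower (25.9%, all genes 6.28%), with a median of 0.01. TXNIP, IRS2, SGK1 and ARRDC4 made up most of the higher side. On the lower side SESN3, a sestrin that restrains mTORC1, read 5.53, 5.81, 5.77 and 5.37 in PP242 24 h and 6.84, 6.92, 6.98 and 7.16 in DMSO 72 h (-1.35, SE 0.17, adjusted p = 1.98e-06). TRIB1, a pseudokinase, was 2.39-fold lower. SESN3 was below the control with PP242 (-0.51) and above it in DMSO 72 h (0.85).

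Most genes of the mTOR pathway itself were not called. Of 33 complex members and regulators, 5 were lower (15.2%, all genes 6.28%) and none higher, with a median of -0.05. Of the 33, 30 had intervals within 1 log2 unit of 0. With the sample number as a block, 2 were higher and 8 lower. MTOR, the kinase that PP242 binds, read 7.23 to 7.90 in PP242 24 h and 7.55 to 7.88 in DMSO 72 h (-0.18, 95% interval -0.61 to 0.25, adjusted p = 0.697). RPTOR, the scaffold of mTORC1, differed by 0.19 (95% interval -0.19 to 0.58, adjusted p = 0.622). RICTOR, the scaffold of mTORC2, was above background on 1 array of each group and differed by -0.16. The 5 lower genes were DDIT4, DDIT4L, DEPTOR, SESN2 and RRAGD. Other inhibitors of mTORC1 on the list were not called, among them, named after their values were seen, TSC1 (0.10, 95% interval -0.41 to 0.61) and TSC2 (-0.05, 95% interval -0.41 to 0.31). DEPTOR, which binds and inhibits mTOR, was 1.48-fold lower, and SESN2, a leucine-sensing sestrin, 1.61-fold, with SESN2 above background on only 1 drug array.

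DDIT4, also called REDD1, is the hypoxia-induced brake on mTORC1. Its levels were 9.58, 9.98, 9.92 and 9.48 in PP242 24 h and 11.87, 11.84, 11.95 and 11.93 in DMSO 72 h. The 4 DMSO arrays were nearly equal and all above the drug arrays. The difference was -2.16 (SE 0.23, adjusted p = 1.33e-07), or 4.46-fold. Both groups exceeded the 0 h control, by 1.34 and 3.5.

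Genes induced by hypoxia were lower in PP242 24 h than in DMSO 72 h, although most of them were above the 0 h control in both. Of 33 hypoxia response genes outside glycolysis, 23 were lower (69.7%, all genes 6.28%), none was higher, and the median was -0.76. Relative to the control, 24 of them were higher in PP242 24 h (all genes 11.5%) and 31 in DMSO 72 h (all genes 11.2%), with medians of 1.34 and 2.30. Of 21 glycolysis genes, 10 were lower (47.6%, all genes 6.28%) and none higher, with a median of -0.69. The glycolysis medians against the control were 0.44 and 1.08. The DMSO 24 h arrays, which had the same exposure time as the drug arrays, gave list medians of 1.69 to 2.07 above the control for the hypoxia genes, between the drug arrays (1.02 to 1.42) and the DMSO 72 h arrays (2.21 to 2.50). Against DMSO 24 h, 12 of the 33 hypoxia genes were lower and 1 higher in PP242 24 h (all genes 11.3% and 10.3%), and 15 were higher and none lower in DMSO 72 h (all genes 7.79% and 8.72%).

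COXFA4L2, a mitochondrial protein that HIF-1 induces and that lowers respiration, had the largest fall. It read 7.79, 7.27, 8.69 and 6.54 in PP242 24 h and 11.63, 11.53, 11.48 and 11.36 in DMSO 72 h. The drug arrays spread over more than 2 log2 units, yet all lay below the DMSO arrays (-3.93, SE 0.46, adjusted p = 7.72e-07). VEGFA, the main angiogenic growth factor, read 8.53, 8.47, 8.95 and 8.39 against 10.76, 10.56, 10.99 and 10.64. The groups were apart on every array (-2.15, SE 0.21, adjusted p = 4.79e-08), 4.45-fold, and both exceeded the control, by 1.78 and 3.93. NDRG1, a hypoxia-induced growth suppressor, was 4.65-fold lower and BHLHE40, a hypoxia-induced repressor, 3.2-fold. BNIP3, a mitophagy receptor, was only 1.7-fold lower: it stood 1.77 above the control after 24 h of drug and 2.53 above it after 72 h of DMSO.

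For other hypoxia genes the level in PP242 24 h did not differ from the control past the threshold. ADM, the vasodilator peptide adrenomedullin, read 6.34, 6.89, 6.63 and 6.28 with the drug and 9.20, 9.09, 8.97 and 8.81 with DMSO at 72 h (-2.48, SE 0.20, adjusted p = 1.66e-09). Its drug level differed from the control by -0.27 (adjusted p = 0.389), and its DMSO 72 h level by 2.21. SLC2A1, the glucose transporter GLUT1, read 9.87, 9.87, 9.52 and 9.08 against 12.06, 11.99, 11.76 and 11.91, 5.09-fold lower (-2.35, SE 0.18, adjusted p = 4.15e-10). It was 0.27 from the control with the drug (adjusted p = 0.305). Among the enzymes, ALDOC, an aldolase, was 3.52-fold lower, PFKFB4, which makes the activator of phosphofructokinase, 3.12-fold, and HK2, the inducible hexokinase, 2.59-fold. GAPDH, by contrast, read 13.61 to 14.06 against 13.79 to 14.05, and its difference of -0.08 had an interval of -0.31 to 0.15.

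The HIF factors themselves differed from one another. EPAS1, which encodes HIF-2 alpha, read 5.51, 6.28, 5.33 and 5.66 in PP242 24 h and 7.61, 7.91, 7.47 and 7.90 in DMSO 72 h, 4.08-fold lower (-2.03, SE 0.28, adjusted p = 7.39e-06). The drug arrays were at the control level (-0.28, adjusted p = 0.535), and the DMSO 72 h arrays 1.75 above it. HIF1A, which encodes HIF-1 alpha, read 8.84, 8.76, 8.85 and 9.64 against 8.34, 8.43, 8.54 and 8.71. The groups did not overlap, with drug replicate 4 far above its fellows, but the difference of 0.52 (SE 0.21) missed the threshold (adjusted p = 0.123) and passed it with the sample number as a block (adjusted p = 0.00737). CITED2, which competes with HIF for its coactivator, was 1.63-fold lower. Of 10 HIF subunits and regulators, EPAS1 and CITED2 were the lower ones (20%, all genes 6.28%) and none was higher. Among 12 angiogenic factors, 5 were lower (41.7%), namely VEGFA, ADM, PGF, EFNA1 and EFNB2, and none was higher. With the block 6 were lower and 1 higher (all genes 9.95% and 10.1%), and 1 higher call is near the share of all genes. PGF, a VEGF relative, was 2.18-fold lower, and EFNA1, an ephrin ligand, 2.21-fold, although another EFNA1 probe differed by -0.24.

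The promoter of BNIP3 is shown as an example from the hypoxia list. It spans chr10:131981924-131982173 on GRCh38.p14, minus strand, and the capitals mark the core of the hypoxia response element, ACGTG, here found on both strands as overlapping matches that begin 134 and 133 bases before the start.
BNIP3: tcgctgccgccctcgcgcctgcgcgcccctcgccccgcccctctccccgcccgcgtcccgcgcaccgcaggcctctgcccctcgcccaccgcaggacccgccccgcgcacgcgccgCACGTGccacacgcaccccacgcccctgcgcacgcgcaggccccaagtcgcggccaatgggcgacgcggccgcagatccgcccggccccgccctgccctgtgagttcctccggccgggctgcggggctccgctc
This core, on either strand, was found in 18.5% of all promoter windows. It was found in 20 of 36 windows (55.6%) of 28 hypoxia genes and in 17 of 45 windows (37.8%) of 21 glycolysis genes. Windows without these letters may hold the element elsewhere.

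Metallothioneins, small proteins that bind zinc and copper, gave the lowest list median. Of 8 tested genes on the list, which includes the zinc exporter SLC30A1, 7 were lower (87.5%, all genes 6.28%) and none higher. The median was -1.93. Against DMSO 24 h the list median was 0.31 in PP242 24 h, with 1 higher and none lower (all genes 10.3% and 11.3%). It was 2.33 in DMSO 72 h, with 7 higher and none lower (all genes 7.79% and 8.72%). MT1G read 7.87, 7.80, 8.37 and 7.55 in PP242 24 h and 10.66, 10.64, 10.52 and 10.61 in DMSO 72 h (-2.71, SE 0.37, adjusted p = 8.22e-06). MT1X read 8.65, 8.61, 8.62 and 8.10 against 10.65, 10.77, 10.42 and 10.46, or 4.23-fold lower. Both genes were above the 0 h control in both groups, MT1G by 2.06 and 4.77 and MT1X by 1.20 and 3.28. MT1H was 4.16-fold, MT1F 2.67-fold and MT1E 4.53-fold lower, though another MT1E probe differed by -0.21. Metallothionein genes are near-identical in sequence, so a probe may read more than 1 of them. SLC30A1, which the same metal sensor induces and which shares no such sequence, was 3.5-fold lower, and its level in PP242 24 h was -0.22 from the control.

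The promoter of MT1X is shown for its metal response elements, the sites of the zinc-sensing factor MTF1. It lies at chr16:56682220-56682469 on GRCh38.p14, plus strand, and the capitals mark 4 matches to TGCNCNC that begin 150, 122, 78 and 53 bases before the start.
MT1X: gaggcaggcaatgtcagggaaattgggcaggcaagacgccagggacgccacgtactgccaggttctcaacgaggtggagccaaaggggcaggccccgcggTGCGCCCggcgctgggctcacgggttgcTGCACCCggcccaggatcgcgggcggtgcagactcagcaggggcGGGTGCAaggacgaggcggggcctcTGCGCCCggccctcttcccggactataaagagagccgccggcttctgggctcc
This short pattern occurred in 49.1% of all promoter windows and in 3 of the 4 windows of metallothionein list genes that were in the table.

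DNA replication genes had similar list medians below the control in both groups, while 33 of 59 mitosis genes were lower in PP242 24 h. Of 45 replication and G1/S genes, none was called in either direction (background 5.36% and 6.28%), 34 had intervals within 1 log2 unit of 0, and 36 had a difference below 0. The median was -0.19. The median was -0.31 without PP242 24 h replicate 2, -0.12 without replicate 1 and -0.11 without replicate 3. At an unadjusted p under 0.05, 5 differed in limma, all lower. With the sample number as a block, 1 was higher and 4 lower, and without PP242 24 h replicate 2, which had the highest replication levels of its group, 6 were lower. Relative to the 0 h control, 40 of the 45 were lower in PP242 24 h (all genes 12.8%) and 40 in DMSO 72 h (all genes 13.3%), with medians of -1.47 and -1.43. MCM3, a subunit of the replicative helicase, read 11.01, 11.06, 10.83 and 10.96 in PP242 24 h and 10.88, 10.67, 11.22 and 11.11 in DMSO 72 h. The groups overlapped fully, and the difference was -0.01 (95% interval -0.33 to 0.31), with both at -1.43 relative to the control. FEN1, the flap endonuclease of lagging strand synthesis, differed by -0.15 (95% interval -0.71 to 0.42) and lay at -2.77 and -2.63 relative to the control. Its difference was -0.48 without PP242 24 h replicate 2 and 0.01 without replicate 4, neither called.

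MCM10, which starts helicase activation, read 7.0, 8.13, 6.29 and 6.91 in PP242 24 h and 7.12, 7.49, 7.56 and 7.98 in DMSO 72 h. Drug replicate 2 was above all DMSO arrays and the other 3 below them, and the difference of -0.46 (95% interval -0.99 to 0.08) missed the threshold (adjusted p = 0.328). Without that array it was -0.80 and passed (adjusted p = 0.0175).

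Of 59 G2/M and mitosis genes, 33 were lower (55.9%, all genes 6.28%) and none higher, with a median of -0.79, and 55 had a difference below 0. The count of lower genes was 26 with 1 median per array, 27 at an offset of 50 and from the deposited table, and 24 to 35 with 1 array left out. The list medians per array, relative to the control, were -1.98, -1.44, -2.11 and -1.74 in PP242 24 h and -1.17, -1.10, -1.03 and -0.64 in DMSO 72 h. Every drug array was below every DMSO 72 h array, and 36 of the 59 genes had groups that did not overlap in the lower direction (all genes 8.68%, and 8.42% in the higher direction). Both groups were below the DMSO 24 h arrays, which were at -0.07 to 0.17. Against DMSO 24 h, 56 of the 59 were lower in PP242 24 h (all genes 11.3%, with 10.3% higher and 21.6% in either direction) and 45 in DMSO 72 h (all genes 8.72%, with 7.79% higher and 16.5% in either direction). These contrasts share the DMSO 24 h arrays. For the replication list, the counts were 42 and 41 of 45. PRC1, which bundles microtubules of the midzone, read 8.82, 9.28, 8.58 and 8.48 in PP242 24 h and 10.14, 10.01, 10.17 and 10.44 in DMSO 72 h (-1.40, SE 0.19, adjusted p = 9.05e-06). CCNB1, the cyclin that drives entry into mitosis, read 7.12, 7.47, 6.89 and 7.46 against 8.26, 8.60, 8.16 and 8.84 (-1.23, SE 0.20, adjusted p = 6.07e-05). Relative to the control it was at -1.95 in the drug group and at -0.72 in the DMSO group. TPX2, a spindle assembly factor, was 2.68-fold lower, TOP2A, a topoisomerase, 2.43-fold, and KIF2C, a kinesin that depolymerises microtubules, 1.86-fold.

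CDK1, the kinase partner of CCNB1, gave a call close to the threshold, which was lost when any of 6 arrays was left out. It read 7.27, 8.05, 6.19 and 6.28 in PP242 24 h and 8.49, 8.82, 8.62 and 8.62 in DMSO 72 h. Drug replicates 3 and 4 were the low ones, and no array of one group reached the other. The difference of -1.69 (SE 0.52) passed the threshold (adjusted p = 0.0318), but the call was lost without drug replicate 3 (-1.44, adjusted p = 0.124) or 4 (-1.47, adjusted p = 0.115). It was also lost without DMSO 72 h replicate 1, 2, 3 or 4 (adjusted p of 0.0566, 0.0787, 0.0631 and 0.0617).

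**Figure D3:**
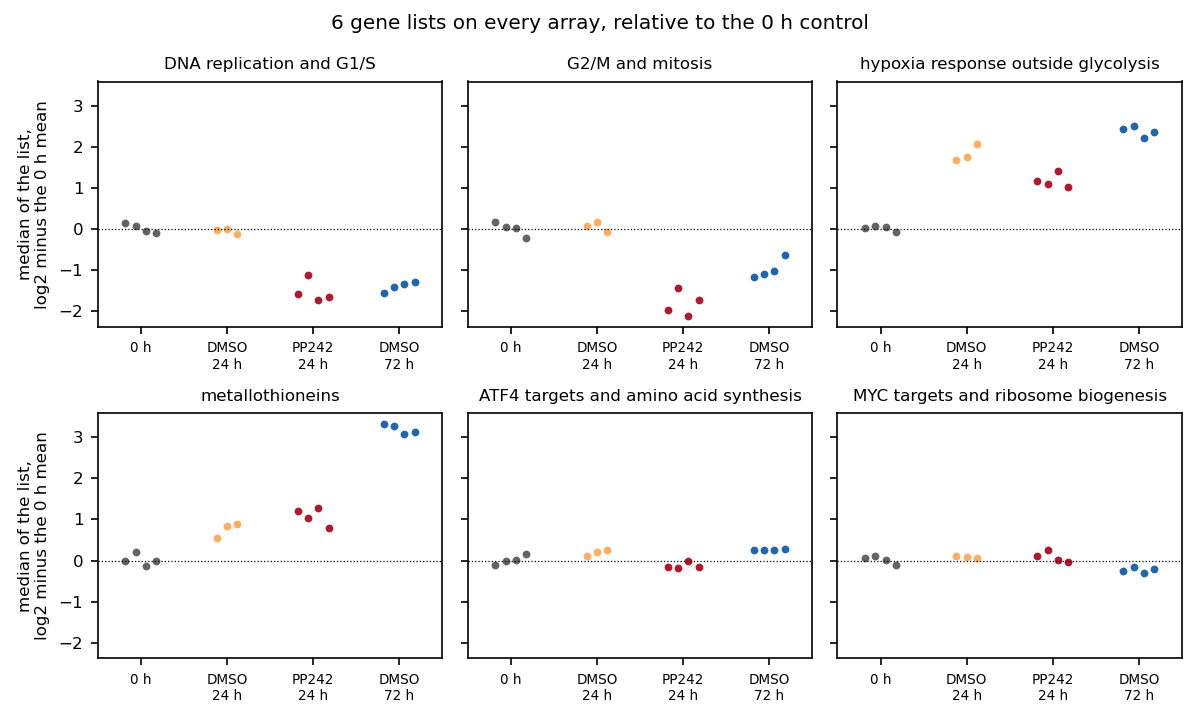
Median of 6 gene lists on every array, as log2 difference from the 0 h mean of each gene (vertical axis), for the 0 h control, DMSO 24 h, PP242 24 h and DMSO 72 h groups; points are arrays. Replication genes are at about the same low level in PP242 24 h (-1.74 to -1.12) and DMSO 72 h (-1.56 to -1.28), mitosis genes are lower in PP242 24 h, and hypoxia genes and metallothioneins are highest in DMSO 72 h.

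The 2 cell cycle lists differ in the known control of their promoters, so 1 promoter of each is shown. PRC1 lies at chr15:90994536-90994785 on GRCh38.p14, minus strand. Its capitals mark a CCAAT box 53 bases before the start and, 20 bases before it, the cell cycle homology region TTTGAA, through which the DREAM and MuvB complexes act. MCM3 lies at chr6:52284743-52284992, minus strand, and its capitals mark 2 E2F sites, GCGGGAA on either strand, that begin 173 and 23 bases before the start.
PRC1: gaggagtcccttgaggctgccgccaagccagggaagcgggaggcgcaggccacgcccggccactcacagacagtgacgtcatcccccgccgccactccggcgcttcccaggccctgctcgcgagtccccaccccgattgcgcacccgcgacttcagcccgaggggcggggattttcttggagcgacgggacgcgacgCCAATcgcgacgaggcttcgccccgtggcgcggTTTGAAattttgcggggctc
MCM3: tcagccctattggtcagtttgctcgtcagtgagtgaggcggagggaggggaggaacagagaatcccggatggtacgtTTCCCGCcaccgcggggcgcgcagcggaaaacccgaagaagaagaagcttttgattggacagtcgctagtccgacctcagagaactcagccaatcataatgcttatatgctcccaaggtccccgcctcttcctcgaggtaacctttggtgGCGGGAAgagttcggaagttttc
TTTGAA, on either strand, occurred in 13.3% of all windows, in 30 of 64 (46.9%) of 50 mitosis genes and in 2 of 53 (3.77%) of 40 replication genes. GCGGGAA occurred in 5.52% of all windows, in 6 mitosis windows (9.38%) and in 17 replication windows (32.1%). CCAAT occurred in 32% of all windows, in 70.3% of the mitosis windows and in 58.5% of the replication windows.

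Some regulators of G1 and of repair were lower. Of 15 G1 cyclins, kinases and inhibitors, 3 were lower (20%, all genes 6.28%) and none higher, with a median of -0.18. The lower count was 1 with 1 median per array, and without PP242 24 h replicate 4 or DMSO 72 h replicate 1. With the block 2 were higher and 4 lower (all genes 10.1% and 9.95%). CDKN1B, the p27 inhibitor, was lower, with levels of 8.82 to 9.13 in PP242 24 h and 9.69 to 9.88 in DMSO 72 h (-0.81, SE 0.14, adjusted p = 0.000135). CCND1, cyclin D1, read 12.48 to 12.93 against 11.92 to 12.34, without overlap (0.49, adjusted p = 0.124), and passed with the sample number as a block (adjusted p = 0.00406). Of 15 DNA repair genes, 2 were lower (13.3%, all genes 6.28%) and none higher. Their median was -0.41, and 14 had a difference below 0. The lower count was 6 with the block (all genes 9.95%) or without PP242 24 h replicate 2. It was 1 without any other of the 8 arrays except PP242 24 h replicate 1. CHEK2, a checkpoint kinase, was 1.69-fold lower. Of 13 histone genes, 1 was lower (7.69%, near the 6.28% of all genes). The count was 2 without PP242 24 h replicate 2, and 0 without PP242 24 h replicate 3 or 4 or any 1 DMSO 72 h array. With the block, 1 was higher and 2 were lower.

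Targets of ATF4, the factor that eIF2 alpha kinases induce in amino acid and ER stress, were lower in PP242 24 h. Of 32 tested, 19 were lower (59.4%, all genes 6.28%) and 1 higher (3.12%, all genes 5.36%), with a median of -0.74. Against DMSO 24 h the list median was -0.32 in PP242 24 h, with 15 lower and 3 higher (all genes 11.3% and 10.3%). It was 0.08 in DMSO 72 h, with 7 higher and 2 lower (all genes 7.79% and 8.72%). ASNS, asparagine synthetase, read 9.69, 9.57, 9.38 and 9.54 in PP242 24 h and 11.26, 11.11, 11.20 and 11.23 in DMSO 72 h (-1.66, SE 0.20, adjusted p = 1.09e-06). SLC3A2, the heavy chain of amino acid exchangers, read 8.10, 8.30, 7.89 and 8.17 against 9.80, 9.67, 9.83 and 9.68 (-1.63, SE 0.17, adjusted p = 1.96e-07). Both genes were below the control in the drug group, at -0.75 and -0.85, and above it in DMSO 72 h, at 0.91 and 0.78, with all 4 values called. CEBPB, a stress transcription factor, was 2.43-fold lower, PHGDH, the first enzyme of serine synthesis, 2.05-fold, and SHMT2, the mitochondrial serine hydroxymethyltransferase, 1.96-fold. PHGDH was at -0.96 relative to the control with the drug and at 0.08 in DMSO 72 h, while SHMT2 was above the control in both, by 0.40 and 1.38.

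ATF4 mRNA itself read 13.28 to 13.51 in PP242 24 h and 13.00 to 13.24 in DMSO 72 h. The drug group was higher by 0.29 (95% interval 0.05 to 0.53), which missed the threshold (adjusted p = 0.126). The ATF4 protein is controlled by translation, which these arrays do not measure.

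The promoter of ASNS is shown for the element that ATF4 binds. It lies at chr7:97872409-97872658 on GRCh38.p14, minus strand, the first of 2 windows listed for the gene, and the capitals mark TGATGNAA, which begins 68 bases before the start.
ASNS: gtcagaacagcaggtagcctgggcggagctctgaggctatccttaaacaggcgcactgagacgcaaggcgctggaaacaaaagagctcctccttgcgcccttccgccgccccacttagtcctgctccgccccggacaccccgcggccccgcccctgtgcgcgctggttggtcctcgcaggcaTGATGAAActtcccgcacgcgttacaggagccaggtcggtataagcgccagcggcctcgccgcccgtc
The pattern was found on either strand in 3.14% of all windows and in 6 of 44 windows (13.6%) of 27 ATF4 list genes.

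Chaperones and other genes of the unfolded protein response went the same way. Of 19 tested, 11 were lower (57.9%, all genes 6.28%) and none higher, with a median of -0.58. Against DMSO 24 h the list median was -0.51 in PP242 24 h, with 12 lower and 1 higher (all genes 11.3% and 10.3%). It was 0.02 in DMSO 72 h, with 3 higher and 1 lower (all genes 7.79% and 8.72%). HYOU1, an ER chaperone, read 6.73, 6.44, 6.23 and 6.54 in PP242 24 h and 8.16, 7.85, 7.89 and 7.64 in DMSO 72 h (-1.40, SE 0.17, adjusted p = 1.97e-06). PPP1R15A, which recruits the phosphatase of eIF2 alpha, was 2.73-fold lower, and HSPA5, the ER chaperone BiP, 1.68-fold. HYOU1 and HSPA5 were below the control with the drug (-1.16 and -0.54), and in DMSO 72 h they differed from it by 0.24 and 0.21, neither of which passed. Of 17 cytosolic chaperones, DNAJB1 and BAG3 were lower (11.8%, all genes 6.28%), by 3.12-fold and 1.71-fold, and none was higher. Of 18 cytosolic aminoacyl-tRNA synthetases, 3 were lower (AARS1, MARS1 and GARS1) and 1 higher, with a median of -0.10. The lower share was 16.7% (all genes 6.28%), and the higher share of 5.56% was near the 5.36% of all genes. With the block 5 were lower, and the higher count was 0 without PP242 24 h replicate 1, 3 or 4 or DMSO 72 h replicate 2. AARS1, the alanyl enzyme, read 10.98, 10.98, 11.07 and 10.99 against 11.89, 11.81, 11.96 and 11.99 (-0.91, SE 0.12, adjusted p = 5.13e-06).

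Sterol synthesis, which mTORC1 promotes through SREBP factors, was lower in part. Of 18 cholesterol genes, 6 were lower (33.3%, all genes 6.28%) and none higher, with a median of -0.41. The lower count was 10 with the sample number as a block (all genes 9.95%). It was 4 with 1 median per array or without PP242 24 h replicate 3, and 5 without PP242 24 h replicate 4 or DMSO 72 h replicate 2. MSMO1, a sterol oxidase, read 8.06, 8.24, 7.61 and 7.57 in PP242 24 h and 9.42, 9.39, 8.95 and 9.10 in DMSO 72 h (-1.35, SE 0.21, adjusted p = 4.31e-05). It was at -1.32 relative to the control with the drug and at 0.03 in DMSO 72 h. INSIG1, an SREBP target that feeds back on it, was 2.62-fold lower, but its probes ranged from -1.39 to -0.15. Of 15 fatty acid synthesis genes, 3 were lower (20%, all genes 6.28%). They were SREBF1, which encodes SREBP-1, by 2.08-fold, FADS1, a desaturase, by 1.87-fold, and SCD, the stearoyl desaturase, by 1.38-fold. Another SREBF1 probe differed by -0.10. None was higher, but 2 were with the block and 1 without PP242 24 h replicate 2 or DMSO 72 h replicate 4.

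Ribosome biogenesis genes were called in the higher direction. Of 35 MYC targets and ribosome biogenesis genes, 9 were higher (25.7%, all genes 5.36%) and none lower, with a median of 0.23. With the sample number as a block 14 were higher and 1 lower. Only 4 were higher with arrays scaled to 1 median in place of quantiles, 5 without DMSO 72 h replicate 1 and 6 without PP242 24 h replicate 3. RRP12, a factor for ribosome export, read 8.16, 8.04, 8.42 and 8.52 in PP242 24 h and 7.43, 7.24, 7.07 and 7.74 in DMSO 72 h (0.92, SE 0.17, adjusted p = 0.000379). PPAN and RRP9, which process pre-ribosomal RNA, were 1.67-fold and 1.57-fold higher. Relative to the control, the list median was 0.07 in the drug group, with 6 genes higher and 5 lower (all genes 11.5% and 12.8%, near these shares). It was -0.26 in the DMSO group, with 3 higher and 11 lower (all genes 11.2% and 13.3%).

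Structural parts of the translation machinery and of the respiratory chain differed little. Of 50 cytosolic ribosomal protein genes, 1 was lower and none higher, 48 had intervals within 1 log2 unit of 0, and the median was -0.06. The called one, RPL28, was 1.86-fold lower (-0.89). Many ribosomal protein genes have processed copies that a probe may also read. None of 25 translation factors was called, of which 24 had such intervals. The block called 2 of them higher, and 3 had an unadjusted p under 0.05. EEF1A1, elongation factor 1A, read 14.27 to 14.42 in PP242 24 h and 14.34 to 14.42 in DMSO 72 h, and its difference of 0.00 had an interval of -0.19 to 0.19. Of 36 oxidative phosphorylation genes, 1 was lower, with a median of -0.17 (-0.0783 without PP242 24 h replicate 4), but 33 had a difference below 0, and the block called 8 lower and 1 higher. The lower count was 2 without PP242 24 h replicate 2 and 0 without any other of the 8 arrays except PP242 24 h replicate 1. None of 27 mitochondrial ribosomal protein genes was called, of which 2 had an unadjusted p under 0.05, and the block called 2 lower.

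**Figure D4:**
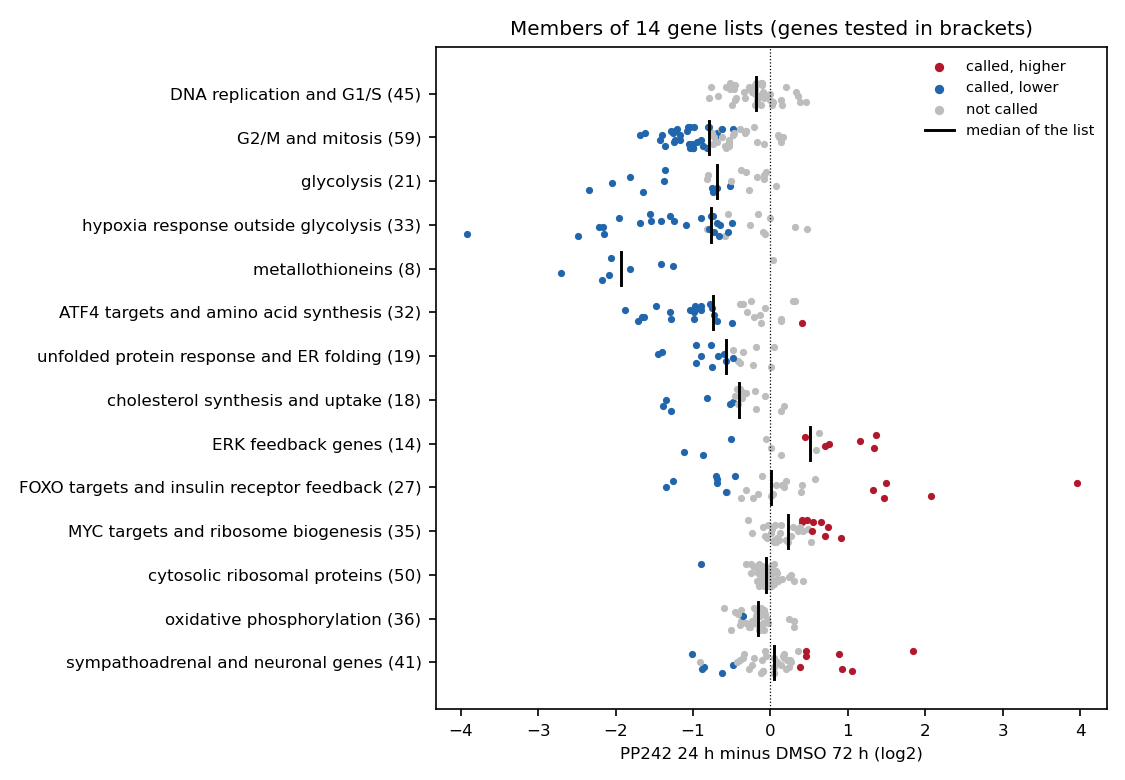
Difference between PP242 24 h and DMSO 72 h (log2, horizontal axis) for the tested members of 14 gene lists (vertical axis, number tested in brackets); points are genes coloured by call and black bars are list medians. Medians run from -1.93 for metallothioneins to 0.51 for ERK feedback genes, and the replication list has a median of -0.19 with no coloured point.

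Sympathoadrenal and neuronal genes moved individually. Of 41 tested, 7 were higher (17.1%, all genes 5.36%) and 5 lower (12.2%, all genes 6.28%), with a median of 0.04. The counts were 4 and 4 without PP242 24 h replicate 4 or with 1 median per array. With the block they were 7 and 10. SLC6A2, the noradrenaline transporter, read 9.53, 9.38, 9.78 and 10.05 in PP242 24 h and 8.45, 8.42, 8.67 and 9.01 in DMSO 72 h (1.05, SE 0.22, adjusted p = 0.00159). SLC18A1, the vesicular monoamine transporter of chromaffin cells, was lower instead, at 10.21 to 10.47 in PP242 24 h and 11.30 to 11.40 in DMSO 72 h (-1.02, SE 0.13, adjusted p = 3.54e-06). TUBB3, a neuronal tubulin, was 1.9-fold and ELAVL4, a neuronal RNA-binding protein, 1.85-fold higher, while SYT1, the calcium sensor of synaptic vesicles, was 1.81-fold lower. CHGA, chromogranin A, read 13.76 to 14.09 against 14.10 to 14.28 and differed by -0.21 (95% interval -0.44 to 0.01, adjusted p = 0.257). HTR3A, a serotonin-gated channel, was 6.27-fold lower with the probe used, while another of its probes differed by 0.08.

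Mesenchymal and neural crest genes were called both ways. Of 26 tested, 7 were lower (26.9%, all genes 6.28%) and 3 higher (11.5%, all genes 5.36%), with a median of -0.03. TWIST1, a factor of mesenchymal transition that is active in neuroblastoma, read 9.22, 9.51, 9.09 and 9.14 in PP242 24 h and 10.25, 10.43, 10.62 and 10.58 in DMSO 72 h (-1.23, SE 0.13, adjusted p = 9.45e-08). SOX9, a neural crest factor, was above background on no drug array and on all 4 DMSO 72 h arrays, and was at least 1.66-fold lower (adjusted p = 4.08e-06). Bounds of this kind set the brighter group against the dimmest signal above background. ACTA2, smooth muscle actin, was 3.79-fold lower and DCN, the matrix proteoglycan decorin, 2.56-fold. Both are also on the list of markers of other cell types. CDH2, N-cadherin, was 1.64-fold and TFAP2B, a sympathoadrenal crest factor, 1.82-fold higher.

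Of 23 markers of fibroblast, endothelial, immune and other cells, 17 had a probe. In PP242 24 h, 4 of these were above background on all arrays and 9 on none, and in DMSO 72 h 5 and 6. Their summed intensity was 615 to 678 in PP242 24 h and 908 to 1085 in DMSO 72 h, and the ranges did not overlap. Of the 11 tested, only ACTA2 and DCN were called, both lower (18.2%, all genes 6.28%), and the list median was -0.21. These also had the largest differences between group means, and the other markers differed much less. The sums therefore do not show a shift across all 17 markers. CD14, a monocyte marker, differed by -0.42 and missed the threshold (adjusted p = 0.0772). It passed with the block (adjusted p = 0.0311), without PP242 24 h replicate 2 (adjusted p = 0.0382) and without DMSO 72 h replicate 3 (adjusted p = 0.0403). The samples are of an established line, so these markers are not read as other cell types in the cultures. The part of these markers in the lower mesenchymal genes was not tested. For ACTA2 and DCN, a shift in cell states within the line and less of their RNA per cell cannot be told apart, and neither was measured.

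Several of the largest falls have not been described yet. IGFBP5, which binds insulin-like growth factors, read 6.78, 7.33, 6.41 and 6.52 in PP242 24 h and 10.37, 10.56, 10.62 and 10.40 in DMSO 72 h (-3.73, SE 0.19, adjusted p = 4.17e-13). S100A4, a calcium-binding protein linked to motility, read 6.87, 6.84, 6.23 and 6.22 against 9.96, 10.03, 9.72 and 9.70 (-3.31, SE 0.25, adjusted p = 4.37e-10). Both lay below the 0 h control with the drug, at -1.96 and -1.52, and above it in DMSO 72 h, at 1.77 and 1.79. TOB1, an antiproliferative factor, had the same pattern at -0.81 and 1.03. TRIM29, a tripartite motif protein, was 4.94-fold lower and INHA, the inhibin alpha subunit, 4.6-fold, with INHA above background on 3 of the 4 drug arrays. ACKR3, a scavenging chemokine receptor, was above background on no drug array and was at least 2.96-fold lower.

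Genes of the p53 and apoptosis list went both ways, with 3 higher and 3 lower of 18 and a median of -0.11. That is 16.7% each (all genes 5.36% and 6.28%), and with the block 4 were higher and 6 lower. GDF15, a stress-induced cytokine, read 5.39, 4.88, 4.93 and 5.01 in PP242 24 h, where 1 array was above background, and 8.27, 7.57, 6.87 and 6.95 in DMSO 72 h (-2.36, SE 0.25, adjusted p = 2.01e-07). TNFRSF10B, the death receptor DR5, was 4.2-fold lower with the probe used, and another probe differed by -0.23. BCL2, the inhibitor of apoptosis, was higher, with 9.04, 8.53, 9.08 and 8.76 against 7.45, 7.63, 8.03 and 7.64 (1.17, SE 0.21, adjusted p = 0.000375). TP53I3, an oxidoreductase induced by p53, was 1.93-fold higher, and its probes ranged from 0.02 to 0.95. Of 14 NRF2 targets, 1 was higher and 1 lower (7.14% each, near the 5.36% and 6.28% of all genes). The lower one was HMOX1, heme oxygenase 1, 3.06-fold lower and above background on 1 drug array. The higher count was 0 without PP242 24 h replicate 1 or 2 or DMSO 72 h replicate 2 or 4, and 2 were lower with the block or without PP242 24 h replicate 2. Of 10 genes of the MYCN and MAX network, 1 was higher and 1 lower (10% each, all genes 5.36% and 6.28%), or 2 and 1 with the block. The higher count was 2 without PP242 24 h replicate 1 and 0 without PP242 24 h replicate 3 or 4 or DMSO 72 h replicate 1 or 2. The lower count was 0 without PP242 24 h replicate 1, 3 or 4 or DMSO 72 h replicate 3 or 4.

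Among 11 TGF-beta and BMP genes, 3 were higher (27.3%, all genes 5.36%) and 2 lower (18.2%, all genes 6.28%). SMAD7 and SMAD6, the inhibitory SMAD proteins, were 2.12-fold and 2.03-fold lower. SMAD3, which carries the TGF-beta signal, was 2.13-fold higher, and TGFB1I1, a focal adhesion coactivator also known as HIC-5, 2.21-fold. SMAD7 read 6.38, 6.34, 6.27 and 5.91 in PP242 24 h and 7.10, 7.19, 7.56 and 7.38 in DMSO 72 h (-1.08, SE 0.18, adjusted p = 8.36e-05). ID1, a BMP target that blocks differentiation factors, was 1.91-fold lower, although its probes ranged from -0.94 to -0.21. Of 39 lysosome and autophagy genes, 6 were lower (15.4%, all genes 6.28%) and 2 higher (5.13%, near the 5.36% of all genes). The counts were 10 and 6 with the block. Without DMSO 72 h replicate 2 they were 5 and 0, and without replicate 3 5 and 1. FLCN, the folliculin tumour suppressor, was 2.16-fold lower, though another probe differed by 0.08, and NPC2, a carrier of lysosomal cholesterol, 1.72-fold.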

How the data were processed

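Bead-array intensities were taken from the non-normalized table that the authors deposited, with 48107 probes on 27 arrays and no column left unused. The deposited table of normalized intensity served as an alternative, and its intensities, before logs, matched a quantile normalization of the same arrays within 2.12%. The table holds no detection p-value, so a background p was taken from the lower side of each array's signals around their mode (density bandwidth 1.5). This replaces the detection p of the plan. Signals were background-corrected with limma 3.58.1 in R 4.3.3 (normexp, offset 16), put on the log2 scale and quantile-normalized. A probe had to pass a background p of 0.05 on 3 or more arrays, which left 31460 (14956 of them without a gene name), and the brightest kept probe stood for each of 12701 genes. Names came from the platform annotation (23495 probes with 1 symbol, 1 with several, and 3871 of the value table's probes with none). The number of arrays limits the precision.

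Groups followed the sample labels. A model with 7 groups was fitted to all 27 arrays with lmFit and eBayes, and p-values were adjusted over all genes by the Benjamini-Hochberg method at 0.05. In simulated data for this comparison with 12701 genes, it recovered 66 of 66 genes changed by 2, 59 of 67 changed by 1 and 27 of 67 changed by 0.5 on the log2 scale, with 10 of 12501 unchanged genes called. The labels do not say that sample numbers pair the arrays, so the main model leaves them unpaired and the block is an alternative. Deviations from the group means correlated at 0.335, 0.267, 0.208 and 0.405 for equal numbers and at -0.371 to 0.247 for unequal ones. The unequal PP242 24 h number 1 and DMSO 72 h number 2 (0.247) exceeded the equal numbers 3 (0.208), so these values do not settle a pairing by number.

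Named genes were MYCN, the mTOR, HIF and cell cycle genes of a short list, the 14 largest rises and falls with groups apart, the 4 called members per list and direction with the smallest p and the 3 brightest, and the 10 largest differences on opposite sides of the control. A few others are named with their values. Members and lists were chosen with earlier results of these data known. Alternatives covered the offset, the normalization, the starting table, the filter, the choice of probe, the arrays fitted, the moderation, the block and each array left out. Promoter windows are RefSeq's, 250 bases before the start.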

Additional observations from a re-analysis of the deposited data

Results flagged for a closer look

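Of 328 sets of 4 arrays checked (130 genes and 34 list medians in both groups), 18 held 1 array far from the other 3, and chance gives about 1 in 20. In PP242 24 h, TPX2 was 7.40 on replicate 2 and 6.59 to 6.71 on the others, HIF1A was 9.64 on replicate 4 against 8.76 to 8.85, and MT1X was 8.10 on replicate 4 against 8.61 to 8.65. AARS1 was 11.07 on replicate 3 against 10.98 to 10.99, DDIT4L was 5.29 on replicate 4 against 5.04 to 5.08, and the fatty acid list median was -0.06 on replicate 3 against -0.28 to -0.25.

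In DMSO 72 h, replicate 1 was the lowest for ENO1 at 13.65 (others 13.93 to 13.98), SMAD3 at 5.14 (5.78 to 5.85) and TOB1 at 10.94 (11.22 to 11.25), and the highest for HSP90B1 at 12.67 (12.52 to 12.53) and the lysosome list median at 0.15 (0.03 to 0.05). Replicate 4 was the lowest for ALDOC at 10.74 (11.07 to 11.09) and the ribosomal protein list median at 0.11 (0.21 to 0.23), and the highest for MARS1 at 9.48 (9.23 to 9.26) and ELAVL4 at 7.42 (6.81 to 6.83). Replicate 3 was the highest for BHLHE40 at 9.27 (9.12 to 9.13) and KLF6 at 9.69 (9.53 to 9.54), and replicate 2 for MYCN at 14.19 (13.94 to 13.97).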

How the results depend on the processing

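No called direction among the named genes reversed under any alternative listed. CDK1 alone lost its call, with adjusted p of 0.0566 at offset 50, 0.0558 with 1 median per array, 0.0821 from the deposited table and 0.0698 with the mean of probes, besides the arrays left out above. With the sample number as a replicate block 2549 genes were called, 1285 higher and 1264 lower, and among the named genes it added CCND1, HIF1A and CD14 and changed no other call. CCND1 also passed in a fit to the 8 arrays alone (adjusted p = 0.0371). Leaving out 1 array gave 1110 to 1461 called genes, 490 to 670 higher and 614 to 791 lower. With 1 median per array 445 genes were higher and 658 lower, so that 40.3% of calls were higher against 46.1%.

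Of 578 recomputed list medians, 536 moved by less than the spread between arrays and 27 had another sign, all of lists whose median was within 0.0963 of 0. The cause of the other moves was not tested. At offset 50 the medians were -0.49 for ATF4 targets, -0.12 for lysosome, -1.50 for metallothioneins, 0.13 for TGF-beta and -0.10 for other-cell markers. With 1 median per array they were -0.80 for glycolysis and -0.0227 for sympathoadrenal genes. From the deposited table they were -0.63 for hypoxia, -0.19 for angiogenic factors, -0.33 for ATF4 targets, -0.40 for the unfolded protein response, -0.10 for lysosome, -1.23 for metallothioneins, -0.0383 for p53, 0.0844 for TGF-beta and -0.0656 for other-cell markers. With no filter they were 0.0251 for MYCN and MAX and 0.15 for TGF-beta, and with the stricter filter -0.55 for angiogenic factors, -0.0163 for Kruppel-like factors, -0.17 for mesenchymal genes and -0.42 for other-cell markers. With the mean of probes they were -0.54 for glycolysis, -1.66 for metallothioneins and -0.0153 for p53.

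Leaving out 1 array moved the median to -0.17 to 0.17 for FOXO targets, -0.72 to -0.50 for the unfolded protein response, -0.0510 to 0.0848 for sympathoadrenal genes, -0.0930 to -0.0623 for mTOR, -0.75 to -0.54 for glycolysis and 0.30 to 0.58 for ERK feedback. The ranges were -0.18 to -0.0624 for p53, -0.16 to -0.0305 for mesenchymal genes, -0.22 to -0.0802 for heat shock, -0.24 to -0.14 for lysosome, -0.27 to -0.13 for other-cell markers, -0.31 to -0.11 for replication, -0.21 to -0.0783 for oxidative phosphorylation and -0.0175 to 0.0543 for translation. Signals near background limit GDF15, NPAS4, HMOX1, SESN2, SOX9 and ACKR3 in the drug group, and RICTOR in both groups.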
